A study of Mus musculus with 9 samples.

Results

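The circadian clock genes described here are Arntl (also known as Bmal1), Clock, Per1, Per2, Per3, Cry1, Nr1d1, Nr1d2, Dbp and Tef. They were chosen by symbol, as the rows of the deposited count table whose Ensembl identifiers map to these names. All 10 were found among the 55401 features of the table, and all 10 were among the 21925 genes that passed the filter on low counts. Ears of C57 mice gave 9 libraries in 3 groups of 3. The first group had received MC903 with paeonol at 200 mg/kg (paeonol ears), the second MC903 without paeonol (MC903 ears), and the third the ethanol vehicle (control ears). MC903, or calcipotriol, is a vitamin D analogue that produces a dermatitis when applied to mouse skin, and paeonol is a phenolic compound of peony root bark. None of these groups received paeonol without MC903. The labels do not give the age or sex of the mice, the hour of day at which ears were taken, the route of paeonol, or whether the libraries of a group came from separate animals. A p-value here therefore speaks only of the scatter among the libraries sequenced, and that scatter could be technical in origin.

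The mammalian clock is a loop of transcription factors. The proteins of Arntl and Clock pair up, bind a DNA element called the E-box and activate their targets, among them the Per and Cry genes, whose proteins in turn inhibit the pair. Nr1d1 and Nr1d2 encode REV-ERB alpha and beta, repressors that act at a second element, the RORE, which the ROR activators also bind and through which Arntl is controlled. Dbp and Tef encode output factors of the PAR bZIP family, which bind yet another element, the D-box. In mouse tissues that keep time, skin included, transcripts of Arntl and of Dbp and Nr1d1 peak at nearly opposite times of day, and the clock of the epidermis is known to time the division of its stem cells.

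The libraries held 54.26 to 57.75 M estimated counts, and the counts of the clock genes lay between 468 for the lowest Per2 library and 12738 for the highest Tef library. Levels below are CPM, the usual measure of a gene's counts relative to the total of its library, scaled between libraries by edgeR's TMM method. Log2 changes, their standard errors (SE) and the adjusted p come from 1 edgeR quasi-likelihood fit of all 9 libraries with Benjamini-Hochberg adjustment over all genes tested, and a gene was called at an adjusted p under 0.05. Keratinocyte markers, which should be high in ear skin, were detected in full: their 15 genes summed to 53150 to 56940 CPM in paeonol ears, 30100 to 38020 CPM in MC903 ears and 23000 to 27720 CPM in control ears. The ear also holds muscle, fat and cartilage, and in bulk tissue fewer cells of a type and less RNA per cell cannot be told apart.

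The promoters of the clock genes were searched for the 3 elements because the members divide by them in how they are known to be driven. RefSeq windows from 250 bases before to 50 after a transcription start were at hand for 9 of the 10 genes, 14 windows in all (build GRCm38.p6). The E-box was searched as CACGTG, the D-box as TTACGTAA or TTATGTAA and the RORE by its consensus, each on both strands. No 2 of these motifs overlapped in the windows shown. The E-box lay in a window of 3 members (Per1, Cry1 and Tef), the D-box in 1 (Per3) and the RORE in 1 (Arntl). Among 32851 mouse windows of the same length, 7.15% held the E-box, 1.06% the D-box and 0.384% the RORE. These shares are per window, whereas the counts above are per gene. A gene with more than 1 window has more places for a match, so the counts and shares are not in like units. The 5 windows below hold these matches, written 5′ to 3′ on the gene's strand with the matching bases in capitals. A match is a description of these letters, and binding was not measured.
Arntl promoter, chr7:113207261-113207560, plus strand: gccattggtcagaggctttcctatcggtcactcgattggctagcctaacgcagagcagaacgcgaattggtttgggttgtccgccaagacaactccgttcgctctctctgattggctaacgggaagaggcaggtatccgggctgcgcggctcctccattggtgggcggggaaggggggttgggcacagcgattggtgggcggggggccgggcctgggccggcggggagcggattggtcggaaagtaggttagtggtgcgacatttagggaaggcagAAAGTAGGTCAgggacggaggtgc
Per3 promoter, chr4:151044616-151044915, minus strand: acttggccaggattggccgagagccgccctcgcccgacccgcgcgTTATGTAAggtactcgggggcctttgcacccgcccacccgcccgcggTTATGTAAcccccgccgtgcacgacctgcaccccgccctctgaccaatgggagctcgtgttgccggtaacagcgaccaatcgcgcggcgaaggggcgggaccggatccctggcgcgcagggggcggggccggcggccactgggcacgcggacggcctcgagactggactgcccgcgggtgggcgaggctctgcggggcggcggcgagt
Per1 promoter, chr11:69098699-69098998, plus strand: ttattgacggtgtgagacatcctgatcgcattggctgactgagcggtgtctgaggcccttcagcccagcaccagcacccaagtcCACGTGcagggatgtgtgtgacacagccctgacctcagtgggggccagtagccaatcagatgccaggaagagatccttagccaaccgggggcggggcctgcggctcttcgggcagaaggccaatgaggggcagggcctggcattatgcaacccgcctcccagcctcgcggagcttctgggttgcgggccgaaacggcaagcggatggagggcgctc
Cry1 promoter, chr10:85185005-85185304, minus strand: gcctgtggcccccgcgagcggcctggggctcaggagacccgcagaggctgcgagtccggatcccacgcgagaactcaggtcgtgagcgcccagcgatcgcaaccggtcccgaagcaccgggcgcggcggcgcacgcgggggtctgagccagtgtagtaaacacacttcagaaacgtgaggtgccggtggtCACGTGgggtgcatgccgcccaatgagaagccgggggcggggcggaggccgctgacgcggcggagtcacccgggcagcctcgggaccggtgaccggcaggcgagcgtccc
Tef promoter, chr15:81802423-81802722, plus strand: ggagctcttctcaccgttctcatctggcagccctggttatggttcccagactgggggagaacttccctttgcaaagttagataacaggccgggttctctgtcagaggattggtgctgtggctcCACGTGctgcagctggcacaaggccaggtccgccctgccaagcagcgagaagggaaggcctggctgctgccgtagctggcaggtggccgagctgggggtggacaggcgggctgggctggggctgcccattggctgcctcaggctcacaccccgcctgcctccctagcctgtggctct
In the Arntl window the RORE starts 26 bases after the start site, inside the transcribed part. The Per3 window holds the D-box at 2 places, 205 and 158 bases before the start site. The E-box starts 166 bases before the start site in Per1, 60 before it in Cry1 and 127 before it in Tef. A second Tef window, not printed, holds an E-box 138 bases before its own start site.

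Levels of different genes were set side by side as CPM per kilobase of exon. In control ears Nr1d1 was the highest clock gene at 38.1 ± 3.66 CPM per kilobase (SD, n = 3), ahead of Tef at 25.7 ± 1.58 and Nr1d2 at 18.9 ± 0.442, and the libraries of these neighbours did not overlap. Dbp and Per1 shared a level of 10.06 CPM per kilobase in control ears, Per3, Cry1, Clock and Arntl lay between 8.07 and 6.43 with overlapping neighbours, and Per2 was lowest at 2.13 ± 0.256. In MC903 ears Per1 (17.8 ± 2.63 CPM per kilobase) and Nr1d1 (17.4 ± 1.77) overlapped at the top, and Arntl, Dbp, Per3 and Per2 lay together at the bottom, between 3.28 and 2.19. In paeonol ears Nr1d1 (22.8 ± 4.62 CPM per kilobase), Tef (20.8 ± 5.09) and Nr1d2 (16.4 ± 2.89) were again the highest, with overlapping libraries from each to the next of these 3.

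**Figure D1:**
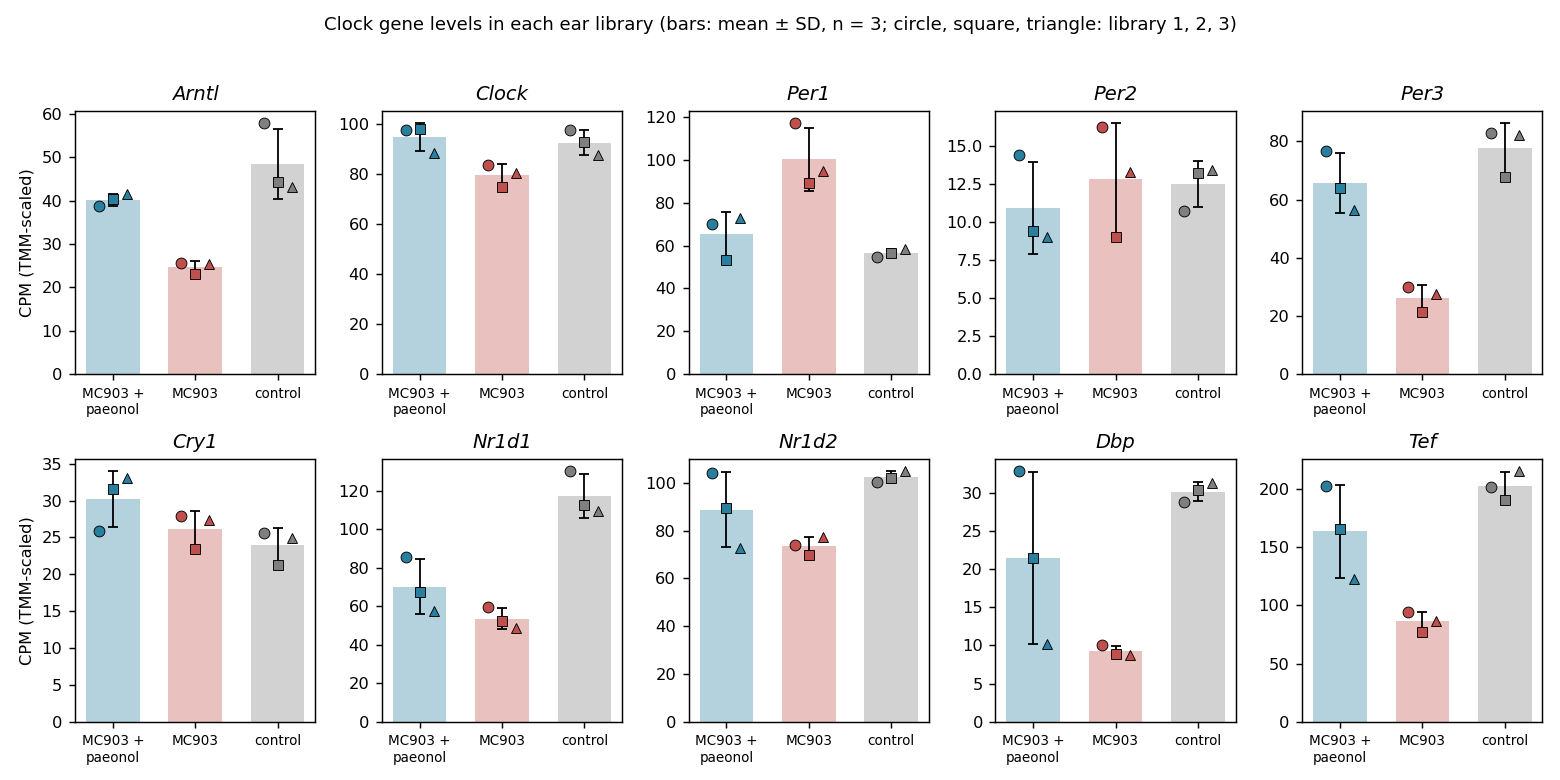
TMM-scaled level (CPM, vertical axes starting at 0) of each of the 10 clock genes in each library, in paeonol, MC903 and control ears; points are libraries (circle, square and triangle for 1, 2 and 3), bars are group means and error bars are SD (n = 3). Arntl, Per3, Nr1d1, Dbp and Tef lie lower in every MC903 library than in every control library, Per1 lies higher, and Dbp and Tef spread widely among the paeonol libraries.

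The first comparison asked what MC903 did to the ear. Of the 10 clock genes, 7 fell and 1 rose in MC903 ears against control ears. Arntl, Clock, Per3, both REV-ERB genes, Dbp and Tef fell, Per1 rose, and Per2 and Cry1 did not pass the test. In the same comparison 46.8% of all genes tested were called, 23.0% as higher and 23.8% as lower, so a call by itself was common. The median log2 change was -0.72 over the 10 clock genes and -0.02 over all genes tested.

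Of the activators, Arntl (chr7:113207465-113314126) had 25.55, 23.01 and 25.45 CPM in MC903 libraries 1 to 3, against 57.78, 44.19 and 43.21 CPM in control libraries. The groups did not overlap, and Arntl fell 1.96-fold (log2 change -0.97 ± 0.11 SE, edgeR adjusted p = 2.36e-05). Its partner Clock (chr5:76209868-76304792) had 83.55, 74.56 and 80.33 CPM in MC903 ears, against 97.45, 92.65 and 87.30 CPM in control ears. That is a small fall, 1.16-fold (log2 change -0.22 ± 0.07, edgeR adjusted p = 0.0226). The Clock call ended when control library 1 or 2, or MC903 library 2 or 3, was left out (edgeR adjusted p between 0.0506 and 0.0955). Npas2, a paralogue of Clock that can replace it beside Arntl, averaged 5.66 ± 1.46 CPM in MC903 ears and 19.5 ± 1.61 CPM in control ears (SD, n = 3 each; log2 change -1.78 ± 0.18, edgeR adjusted p = 9.93e-06).

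Of the 3 Period genes, which encode inhibitors of the Arntl and Clock pair, 1 rose, 1 fell and 1 was not called. Per1 (chr11:69095217-69109960), also a gene that glucocorticoids induce, had 117.0, 88.96 and 94.70 CPM in MC903 ears, against 54.64, 56.66 and 58.57 CPM in control ears. Every MC903 library lay above every control library (1.77-fold, log2 change 0.82 ± 0.13, edgeR adjusted p = 0.000315). Per3 (chr4:151003652-151044665) had 29.85, 21.29 and 27.61 CPM in MC903 ears, against 82.76, 67.63 and 82.32 CPM in control ears. This was a fall of 2.96-fold with no overlap (log2 change -1.56 ± 0.15, edgeR adjusted p = 1.81e-05). Per2 (chr1:91415982-91459324) had 16.21, 8.98 and 13.29 CPM in MC903 ears, against 10.74, 13.24 and 13.42 CPM in control ears. Its groups overlapped and the test did not call it (log2 change 0.04 ± 0.23, edgeR adjusted p = 0.904), and the sign of that value turned with scaling by library totals. Cry1 (chr10:85131700-85185064), a Cryptochrome gene whose protein joins the Period proteins as an inhibitor, averaged 26.2 ± 2.38 CPM in MC903 ears and 23.9 ± 2.30 CPM in control ears with overlapping libraries (edgeR adjusted p = 0.389). Cry2, the other Cryptochrome, averaged 40.7 ± 6.46 CPM in MC903 ears and 65.5 ± 2.58 CPM in control ears, a called fall (SD, n = 3 each; log2 change -0.69 ± 0.11, edgeR adjusted p = 0.000339).

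Among the REV-ERB repressors, Nr1d1 (chr11:98767932-98775333) had 59.57, 52.21 and 48.96 CPM in MC903 ears, against 130.2, 112.4 and 109.4 CPM in control ears. The highest MC903 library lay far below the lowest control library (2.19-fold lower, log2 change -1.13 ± 0.14, edgeR adjusted p = 9.76e-05). Nr1d2 (chr14:18204054-18239127) had 73.84, 69.94 and 77.35 CPM in MC903 ears, against 100.2, 102.2 and 104.9 CPM in control ears, with no overlap either. Its fall was smaller, 1.39-fold (log2 change -0.47 ± 0.11, edgeR adjusted p = 0.00315). Nr1d1 and Thra, a thyroid hormone receptor gene on the opposite strand, share 263 exon bases, 8.55% of those of Nr1d1. Thra fell too in MC903 ears (log2 change -1.31 ± 0.10, edgeR adjusted p = 1.70e-06). The sources used here do not say whether counting used strand, so reads in the shared stretch cannot be assigned to either gene.

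Of the 10 genes Dbp, an output factor, had the largest fall. Dbp (chr7:45705088-45710203) had 10.04, 8.93 and 8.77 CPM in MC903 ears, against 28.78, 30.30 and 31.23 CPM in control ears, tight in both groups. The fall was 3.26-fold (log2 change -1.70 ± 0.36, edgeR adjusted p = 0.005). The fit shares its estimate of spread over all 9 libraries, so this SE and p also carry the scatter of the paeonol libraries. The SD of Dbp was 11.3 CPM in paeonol ears, 0.694 CPM in MC903 ears and 1.24 CPM in control ears. Tef (chr15:81802421-81826863) had 94.43, 77.41 and 86.72 CPM in MC903 ears, against 201.8, 190.4 and 215.3 CPM in control ears, a fall of 2.35-fold with no overlap (log2 change -1.23 ± 0.16, edgeR adjusted p = 0.000218). Hlf, the remaining PAR bZIP factor, fell as well, with 15.1 ± 2.38 CPM in MC903 ears and 102.6 ± 13.1 CPM in control ears (SD, n = 3 each; log2 change -2.77 ± 0.18, edgeR adjusted p = 3.88e-06). Nfil3, which represses through the same D-box that these factors activate, rose (log2 change 0.85 ± 0.14, edgeR adjusted p = 0.000369). Dbp shares 539 exon bases (18.0% of its own) with Sphk2 on the opposite strand, and Sphk2 was not called here (log2 change -0.09 ± 0.07, edgeR adjusted p = 0.281).

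The second comparison set paeonol ears against MC903 ears. Of the 10 clock genes, 5 rose in paeonol ears (Arntl, Clock, Per3, Dbp and Tef) and 1 fell (Per1). The share called among all genes tested was 29.7%, with 15.3% higher and 14.3% lower. The median log2 change of the clock genes was 0.33, against 0.00 over all genes. This comparison shares its MC903 libraries with the one before, so opposite signs in the 2 comparisons are not independent and are given here only as each comparison's own values.

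Arntl had 38.79, 40.25 and 41.53 CPM in paeonol ears, all above the MC903 libraries given before, whose highest had 25.55 CPM. The difference was 1.63-fold (log2 change 0.70 ± 0.11, edgeR adjusted p = 0.000561). Clock had 97.44, 98.07 and 88.27 CPM in paeonol ears, again above every MC903 library but by little (log2 change 0.25 ± 0.07, edgeR adjusted p = 0.0179). Without MC903 library 2, paeonol library 1 or paeonol library 2 the Clock call ended (edgeR adjusted p between 0.0559 and 0.078).

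Per3 had 76.64, 63.84 and 56.47 CPM in paeonol ears, so that its lowest paeonol library stood above its highest MC903 library at 29.85 CPM. Per3 thus differed by 2.5-fold (log2 change 1.32 ± 0.15, edgeR adjusted p = 0.000141), the largest change among the 10 genes in this comparison. Per1 had 69.84, 53.31 and 72.70 CPM in paeonol ears, below every MC903 library (log2 change -0.62 ± 0.13, edgeR adjusted p = 0.0038). Per2 had 14.36, 9.39 and 8.97 CPM in paeonol ears and Cry1 had 25.91, 31.58 and 33.09 CPM. Both overlapped the MC903 libraries and were not called (edgeR adjusted p = 0.512 for Per2 and 0.218 for Cry1).

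The REV-ERB genes and the output factors spread more widely among the paeonol libraries than Arntl and Clock did. Tef had 202.4, 165.8 and 122.4 CPM in paeonol ears, each above the highest MC903 library at 94.43 CPM (1.90-fold, log2 change 0.92 ± 0.16, edgeR adjusted p = 0.0024). Dbp had 32.80, 21.40 and 10.22 CPM in paeonol libraries 1 to 3. Library 1 lay above all control libraries, and library 3 was level with MC903 library 1 at 10.04 CPM. The Dbp change was called (log2 change 1.22 ± 0.35, edgeR adjusted p = 0.0352), and the call ended when any 1 library other than paeonol library 3 was left out (edgeR adjusted p between 0.0542 and 0.11). Without paeonol library 1 the log2 change of Dbp was 0.78. Sphk2, which shares exon bases with Dbp, had a small called change in the same direction (log2 change 0.22 ± 0.07, edgeR adjusted p = 0.0269).

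Nr1d1 had 85.52, 67.45 and 57.46 CPM in paeonol ears, and library 3 lay within the MC903 range of 48.96 to 59.57 CPM. It was not called (log2 change 0.39 ± 0.14, edgeR adjusted p = 0.0595). Nr1d2 had 104.0, 89.44 and 72.70 CPM in paeonol ears, with library 3 again inside the MC903 range, and was not called (log2 change 0.27 ± 0.11, edgeR adjusted p = 0.0807). Both were called once paeonol library 3 was left out (edgeR adjusted p = 0.00933 for Nr1d1 and 0.00334 for Nr1d2).

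The third comparison set paeonol ears against control ears, and both its groups also stand in a comparison above. Cry1 rose and Nr1d1 fell, and 8 of the 10 clock genes were not called. Of all genes tested 30.9% were called, 16.3% as higher and 14.5% as lower, and the median log2 change was -0.22 over the clock genes and -0.03 over all genes. Nr1d1 averaged 70.2 ± 14.2 CPM in paeonol ears and 117.4 ± 11.3 CPM in control ears, with no overlap (SD, n = 3 each; log2 change -0.74 ± 0.14, edgeR adjusted p = 0.00281). Cry1, the lesser of both changes, averaged 30.2 ± 3.79 CPM in paeonol ears and 23.9 ± 2.30 CPM in control ears (log2 change 0.33 ± 0.12, edgeR adjusted p = 0.0464). The Cry1 call ended under scaling by library totals (edgeR adjusted p = 0.264) and without any 1 of 7 libraries, which were each control library, MC903 library 1 or 3, and paeonol library 2 or 3 (edgeR adjusted p between 0.0548 and 0.164).

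The other 8 genes missed the threshold. Arntl averaged 40.2 ± 1.37 CPM in paeonol ears and 48.4 ± 8.14 CPM in control ears (SD, n = 3 each) with no overlap (log2 change -0.27 ± 0.11, edgeR adjusted p = 0.0803). With library totals in place of TMM it was called (log2 change -0.43, edgeR adjusted p = 0.00862). Dbp differed by a log2 change of -0.49 ± 0.35 (edgeR adjusted p = 0.344) and Tef by -0.31 ± 0.16 (edgeR adjusted p = 0.184). Without paeonol library 1 the called clock genes numbered 5, with Dbp (log2 change -0.91, edgeR adjusted p = 0.027), Nr1d2 (-0.32) and Tef (-0.47) added as lower. In the fit of all 9 libraries Nr1d2 differed by -0.21 ± 0.11, and with library totals it was called (log2 change -0.37, edgeR adjusted p = 0.0325). Per1 was called as higher without paeonol library 2 (log2 change 0.33, edgeR adjusted p = 0.046). Per3, Per1, Per2 and Clock had log2 changes of -0.24, 0.21, -0.19 and 0.03, all with overlapping libraries.

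**Figure D2:**
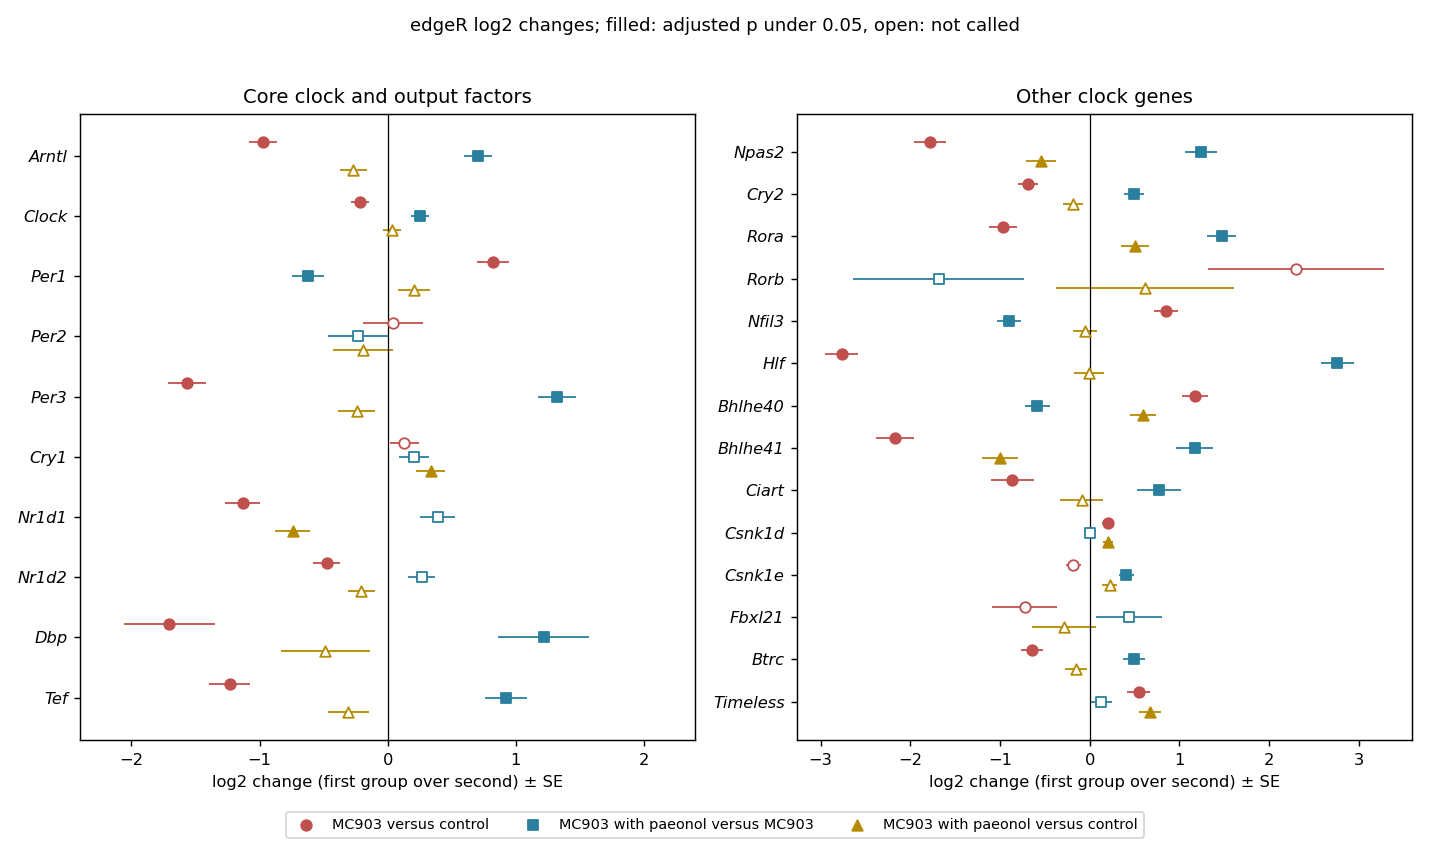
edgeR log2 changes with SE (horizontal axes, first-named group over second) of the 10 clock genes (left) and 14 of the other clock genes (right) in the 3 comparisons; filled symbols are called and open symbols are not. Most symbols of MC903 against control lie left of 0 and most of paeonol against MC903 lie right of 0. Per1, Nfil3 and Bhlhe40 lie the other way round, as do Rorb and Per2 with open symbols. Hlf reaches -2.77 and 2.76.

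The paeonol libraries differed among themselves. Library 1 was the highest and library 3 the lowest of its group for 6 of the 10 clock genes (Dbp, Tef, Nr1d1, Nr1d2, Per3 and Per2), whereas for Arntl and Cry1 library 3 was the highest and library 1 the lowest. Dbp differed 3.21-fold between the highest and lowest paeonol library, a ratio that 0.718% of the 12959 genes with a mean of at least 5 CPM reached or passed. The corresponding ratio was 1.65 for Tef, 1.49 for Nr1d1, 1.43 for Nr1d2 and 1.07 for Arntl, where the median over all these genes was 1.16. Among MC903 libraries Dbp differed 1.15-fold and Tef 1.22-fold, and among control libraries Dbp differed 1.09-fold and Tef 1.13-fold. A shared order was not particular to paeonol ears. For Arntl, Clock, Per1, Per2, Per3, Cry1 and Tef, MC903 library 1 was the highest and library 2 the lowest of the MC903 group. Per2 differed 1.80-fold there. How many of all genes follow either order was not counted. Of the other clock genes, Hlf (1.47-fold), Ciart (1.5-fold) and Cry2 (1.23-fold) also had library 1 highest and library 3 lowest among paeonol libraries.

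Ratios within a library do not depend on scaling between libraries. The log2 ratio of Dbp to Arntl was -0.24, -0.91 and -2.02 in paeonol libraries 1 to 3, against -1.35, -1.37 and -1.54 in MC903 libraries and -1.01, -0.54 and -0.47 in control libraries. The paeonol values ran past both other groups at each end. The log2 ratio of Nr1d1 to Arntl was 1.14, 0.75 and 0.47 in paeonol libraries, against 1.22, 1.18 and 0.94 in MC903 libraries and 1.17, 1.35 and 1.34 in control libraries. Paeonol libraries 2 and 3 were thus below all 6 others.

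**Figure D3:**
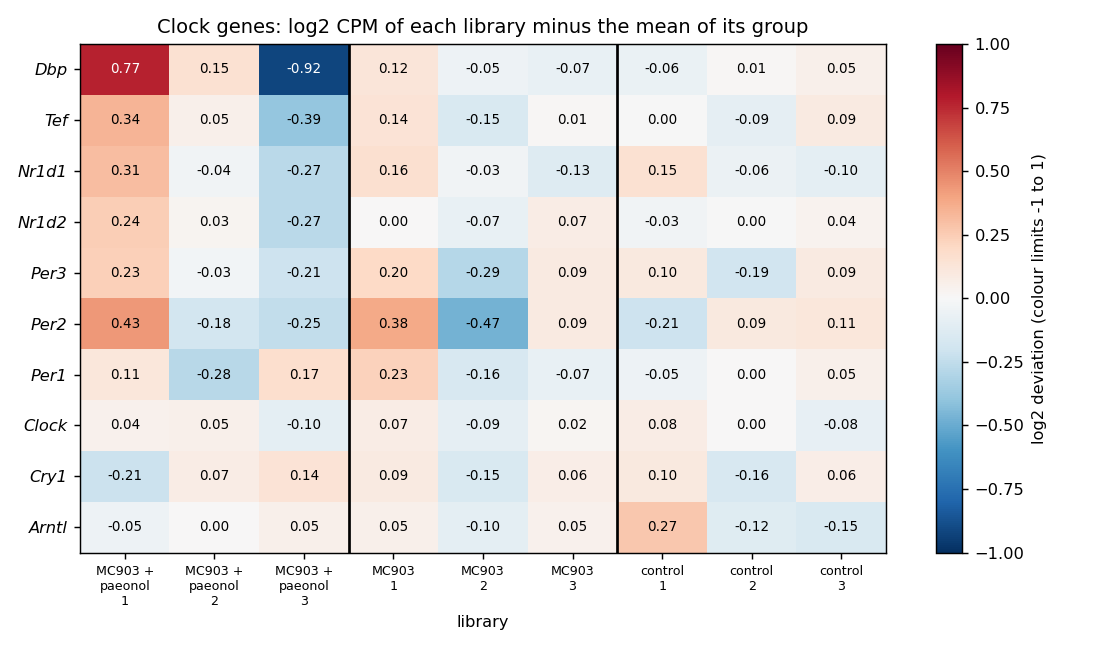
Log2 CPM of each clock gene in each library minus the mean of its group (colour and printed value; rows are genes, columns are libraries of paeonol, MC903 and control ears). Dbp departs most, with 0.77 in paeonol library 1 and -0.92 in paeonol library 3, and Tef, Nr1d1, Nr1d2 and Per3 share its signs in these 2 libraries.

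A further 16 clock genes were examined as a list. In MC903 ears against control ears 4 rose and 8 fell, with a median log2 change of -0.67, where 46.8% of all genes were called. In paeonol ears against MC903 ears 9 rose and 2 fell (median 0.47, with 29.7% of all genes called). In paeonol ears against control ears 4 rose and 3 fell (median -0.03, with 30.9% called). Leaving out 1 library at a time gave 10 to 13, 9 to 11 and 3 to 7 calls in these comparisons in turn. In paeonol against control the calls of Rora and Npas2 each ended in several of these fits (edgeR adjusted p up to 0.127 and 0.109). The ROR genes encode activators that compete with REV-ERB at the RORE. Rora averaged 233.1 ± 4.77 CPM in paeonol ears, 84.2 ± 19.3 CPM in MC903 ears and 164.7 ± 26.6 CPM in control ears (SD, n = 3 each), lower in MC903 ears than in control ears (log2 change -0.97) and higher in paeonol ears than in MC903 ears (1.47). Rorb stayed under 1 CPM in every library and was not called in the edgeR fit. DESeq2 called it as higher in MC903 against control (log2 change 2.31, DESeq2 adjusted p = 0.044).

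Both DEC genes, E-box repressors of the clock, were called in opposite directions. Bhlhe40 averaged 81.1 ± 8.35 CPM in paeonol ears, 121.6 ± 8.5 CPM in MC903 ears and 53.7 ± 12.2 CPM in control ears (SD, n = 3 each), and rose in MC903 against control (log2 change 1.18, edgeR adjusted p = 0.000106). Bhlhe41 averaged 11.1 ± 1.18 CPM in paeonol ears, 4.94 ± 1.78 CPM in MC903 ears and 22.3 ± 1.25 CPM in control ears, and fell (log2 change -2.17, edgeR adjusted p = 9.08e-06). Hlf, at 102.0 ± 20.7 CPM in paeonol ears, rose against MC903 ears by a log2 change of 2.76 ± 0.18, the largest on the list. Against control ears the log2 change of Hlf was -0.01 ± 0.17 (edgeR adjusted p = 0.98). Nfil3 fell in paeonol against MC903 ears (log2 change -0.90 ± 0.14, edgeR adjusted p = 0.000564).

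The rest of the list moved less. Ciart, an inhibitor of the Arntl and Clock pair, fell in MC903 against control ears (log2 change -0.86 ± 0.24) and rose in paeonol against MC903 ears (0.77 ± 0.24), where the groups overlapped. The first Ciart call ended without MC903 library 2 or 3 (edgeR adjusted p = 0.0517 and 0.0528), and the second without control library 3, MC903 library 2 or 3, or paeonol library 1 or 2 (edgeR adjusted p between 0.0504 and 0.121). Btrc, part of a ubiquitin ligase that marks Period proteins for destruction, fell (-0.65 ± 0.12) and rose (0.49 ± 0.12) in these comparisons. Timeless, which also serves DNA replication, rose in MC903 ears (log2 change 0.55 ± 0.13) and in paeonol ears (0.67 ± 0.13), each against control ears. Csnk1d, a kinase of Period proteins, had a called log2 change of 0.20 in MC903 against control, which was 0.01 and not called under scaling by library totals and also lost its call without control library 2 or 3 or MC903 library 3 (edgeR adjusted p between 0.0515 and 0.0591). Csnk1e, a second such kinase, was called in paeonol against MC903 (log2 change 0.41 ± 0.08). It was called as lower in MC903 against control under library totals (log2 change -0.37, edgeR adjusted p = 0.00245). In paeonol against control it was called with DESeq2 size factors, with a mean CPM of at least 1, and without control library 1 or paeonol library 2 (edgeR adjusted p between 0.0214 and 0.0485). Fbxl21, which encodes a Cryptochrome ligase subunit, was not called in the 3 comparisons, though without MC903 library 1 it was called as lower in MC903 against control (log2 change -1.12, edgeR adjusted p = 0.0333).

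Genes with rhythmic transcripts that lie outside the loop were examined as a list of 8. In MC903 ears against control ears 4 of them rose in the edgeR fit and 4 were not called (median log2 change 0.36), where 46.8% of all genes were called. Those that rose were Alas1 (log2 change 1.47 ± 0.17), the first enzyme of heme synthesis, Noct (1.39 ± 0.17), Klf10 (0.82 ± 0.10) and the cell cycle inhibitor Cdkn1a (0.43 ± 0.07). DESeq2 also called 4, all higher, and an unadjusted p under 0.05 held for 5, none of them lower. Scaling by library totals gave 4 higher and 2 lower. In paeonol ears against MC903 ears 29.7% of all genes were called. Of the list, Wee1, a kinase that holds back mitosis, rose there (log2 change 0.49 ± 0.12). Alas1 (-0.68 ± 0.17), Klf10 (-0.74 ± 0.10) and Noct (-0.56 ± 0.17) fell. The groups of Noct overlapped, and its call ended with no filter, with only these 2 groups fitted, or without MC903 library 2 or 3 or paeonol library 1 or 2 (edgeR adjusted p between 0.0522 and 0.105). The Alas1 call ended without paeonol library 2 (edgeR adjusted p = 0.0528). In paeonol ears against control ears 4 of the 8 rose and 1 fell, where 30.9% of all genes were called.

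**Figure D4:**
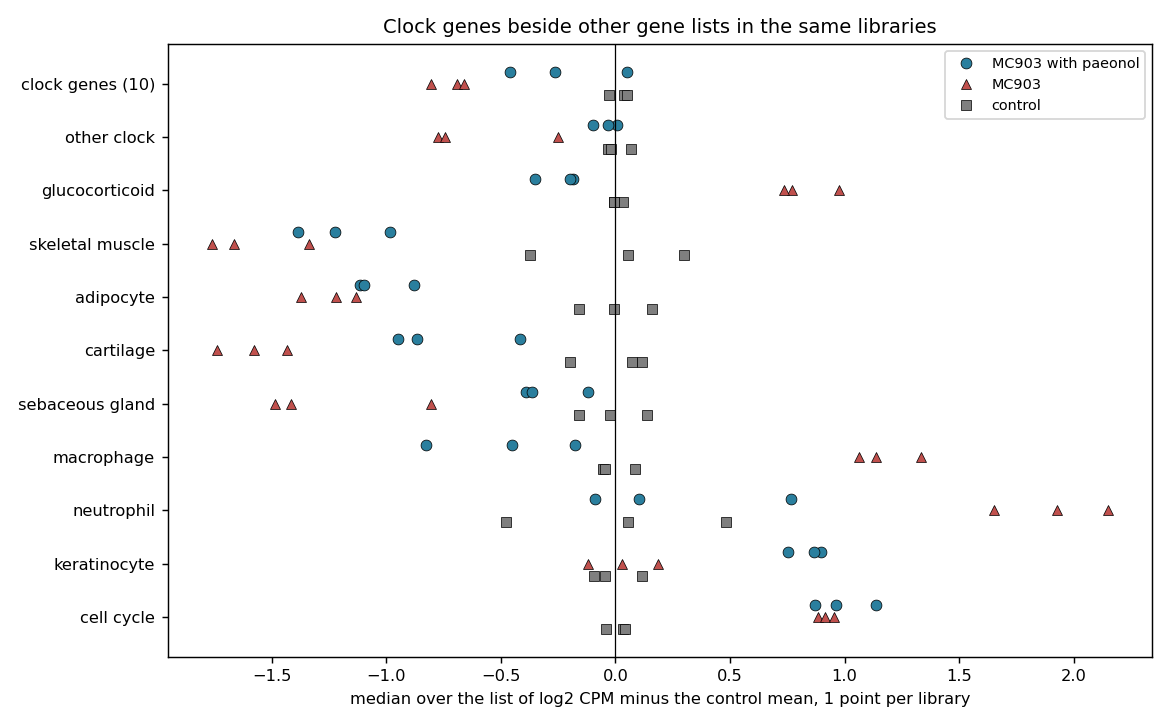
Median over each gene list (rows) of the log2 CPM of a library minus the control mean (horizontal axis), with 1 point per library, for paeonol, MC903 and control ears. The medians of the 10 clock genes lie between -0.66 and -0.80 in MC903 libraries and at 0.05, -0.26 and -0.46 in paeonol libraries 1 to 3.

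Several other cell types and signals moved with these groups, and their part in the clock results was not tested. The counts of called markers here and in the next paragraph stand beside high shares over all genes. These were 46.8% in MC903 against control, 29.7% in paeonol against MC903 and 30.9% in paeonol against control. Skeletal muscle markers (20 genes) summed to 3678 to 4901 CPM in paeonol ears, 3209 to 4125 CPM in MC903 ears and 7141 to 10690 CPM in control ears. All 20 fell in paeonol ears and 19 in MC903 ears, each against control. Adipocyte markers (14 genes) summed to 524.7 to 585.9 CPM in paeonol ears, 454.4 to 562.5 CPM in MC903 ears and 847.9 to 1049 CPM in control ears, with 14 called lower in MC903 ears and 12 in paeonol ears. In paeonol against MC903 ears both lists had 6 higher and 2 lower, with median log2 changes of 0.42 for muscle and 0.35 for fat, where the clock genes had 0.33. In paeonol against control ears the medians were -1.23 and -1.08, where the clock genes had -0.22. Cartilage markers had 12 of 13 tested lower in MC903 against control, and 11 of 13 higher in paeonol against MC903. Their sum was 343.8 to 462.7 CPM in paeonol ears, 232.9 to 266.9 CPM in MC903 ears and 564.9 to 702.3 CPM in control ears, with Matn1 at 0 in all groups and Matn3 at 0 in MC903 ears. Sebaceous gland markers had 10 of 14 lower in MC903 against control, and 9 higher and 1 lower in paeonol against MC903. Their sum was 4235 to 5505 CPM in paeonol ears, 1273 to 2242 CPM in MC903 ears and 7003 to 8897 CPM in control ears. In paeonol against control 8 of 13 cartilage and 4 of 14 sebaceous markers were lower, and 0 of either were higher. The median log2 changes there were -0.81 for cartilage and -0.24 for sebaceous gland, the latter close to the clock genes. The sebaceous medians were -1.27 in MC903 against control and 0.79 in paeonol against MC903, where the clock genes had -0.72 and 0.33.

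Immune and growth markers moved as well. Macrophage markers (14 genes) summed to 614.5 to 987.6 CPM in paeonol ears, 1980 to 2244 CPM in MC903 ears and 1130 to 1214 CPM in control ears, with 13 higher and 1 lower in MC903 against control and 13 lower in paeonol against MC903. Neutrophil markers (10 tested of 12) had 7 higher in MC903 against control and 6 lower and 1 higher in paeonol against MC903. Their sum was 305.5 to 386.9 CPM in paeonol ears, 621.9 to 777.2 CPM in MC903 ears and 105.1 to 354.0 CPM in control ears, with Ngp at 0 in paeonol and control ears and Ly6g at 0 in paeonol ears. All 15 cell cycle markers rose in MC903 ears and in paeonol ears, each against control, with sums of 1130 to 1357 CPM in paeonol ears, 1107 to 1151 CPM in MC903 ears and 627.7 to 662.5 CPM in control ears. Keratinocyte markers had 6 higher and 4 lower in MC903 against control, 10 higher and 2 lower in paeonol against MC903, and 12 higher and 1 lower in paeonol against control. A glucocorticoid list of 10 genes, without Per1, held the receptor gene Nr3c1 and the enzyme gene Hsd11b1 beside genes of the response. Its sum was 578.5 to 646.0 CPM in paeonol ears, 1110 to 1157 CPM in MC903 ears and 632.8 to 651.7 CPM in control ears. Of these 10, 8 rose and 1, the receptor gene Nr3c1, fell in MC903 against control. In paeonol against MC903 9 fell and 1, again Nr3c1, rose.

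Covariates made from the muscle and fat markers could be fitted but carried most of the group difference themselves (R squared with group 0.907 and 0.962). With the muscle covariate Arntl, Per3, Nr1d1 and Tef were still called lower in MC903 against control ears, and the calls of Clock, Per1, Nr1d2 and Dbp ended (edgeR adjusted p between 0.0679 and 0.282). The median log2 change of the clock genes was then -1.28, against -0.72 without a covariate, and that of Clock was -0.65. In paeonol against MC903 ears the muscle covariate gave 8 called clock genes, 7 higher and 1 lower, with Nr1d1 and Nr1d2 added to the 6. With the adipocyte covariate edgeR called 0 of the clock genes in MC903 against control, where 3 had an unadjusted p under 0.05, and 0 of all genes, where 1709 had. The median log2 change of the clock genes was -0.69 in that fit, and that of Arntl was -1.88. In paeonol against MC903 it called 2, Arntl and Per3. Of the 16 further clock genes the muscle covariate left 1 higher and 4 lower in MC903 against control (median log2 change -0.82). The adipocyte covariate left 0 called there (median -0.35). In paeonol against MC903 the muscle covariate gave 9 higher and 2 lower, and the adipocyte covariate 2 higher and 1 lower. In paeonol against control both left 0 of the 16 called.

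Genes of like pattern were sought by the Pearson correlation of log2 CPM over the 9 libraries, among 12321 genes, as a description in which group differences are shared. With the 10 clock genes and the 16 further ones left out, closest to Dbp were Npr2, a natriuretic peptide receptor gene (r = 0.975), Rab36 (r = 0.975) and Stat5a (r = 0.974). Rab36 averaged 4.35 ± 2.21 CPM in paeonol ears, 2.67 ± 0.233 CPM in MC903 ears and 6.81 ± 0.251 CPM in control ears. Npr2 averaged 82.75 ± 14.49, 70.23 ± 2.232 and 99.64 ± 5.025 CPM in these groups in turn. Stat5a averaged 30.07 ± 3.706, 24.94 ± 1.097 and 32.8 ± 1.525 CPM. All 3 have their largest SD in paeonol ears, but they were picked for likeness to Dbp over these same libraries. Closest to Arntl, likewise, were Ocel1 (r = 0.987), Nek7 (r = 0.986) and Vamp2 (r = 0.981). Among the clock genes themselves Dbp was closest to Nr1d2 (r = 0.981) and Tef (r = 0.969), and Arntl to Per3 (r = 0.944). Arntl was also positively correlated with Dbp (r = 0.792), Nr1d1 (r = 0.834) and Tef (r = 0.893). Negative values were those of Per1 with Arntl (r = -0.874) and Dbp (r = -0.807), Per2 with Arntl (r = -0.137) and Cry1 with Dbp (r = -0.362).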

How the data were processed

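Per the labels' protocols, poly(A) messenger RNA of ears was made into libraries with a dUTP-marked second strand. The submitters' processing notes name build GRCm38 with the tools HISAT2 2.0.4, cutadapt and StringTie 1.3.4d, and do not state their roles or how strand was treated. The authors deposited whole-number values per gene, taken here as estimated counts that were not scaled between libraries. Low values gather at multiples of 4: the value 4 occurred 1.905 to 2.232 times as often as the mean of 3 and 5. The members and gene lists were chosen with earlier results of these data known. Group labels came from the treatment field. Genes were kept by filterByExpr (minimum count 10, minimum total 15). edgeR 4.0.16 in R 4.3.3 fitted all 9 libraries, with robust quasi-likelihood dispersions after TMM scaling (factors 0.942 to 1.09), and each pair of groups was compared by a two-sided F test. The SE was taken as the log2 change over the square root of F. The common biological coefficient of variation was 0.214, and replicates differed by more than counting noise. Log2 CPM used a prior count of 2. All 10 members and the other clock and output lists are named by rule, with the 3 genes most like Dbp and Arntl; some genes of the lists are counted but not reported here. Levels per kilobase use the union of exons. Alternatives were DESeq2 1.42.0, its size factors, library totals, other filters (none, or a mean CPM of 1), counts divided by 4, fits of 2 groups, a replicate block, muscle or adipocyte covariates and each library left out. Library names matched every value column. Promoters are from RefSeq.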

Additional observations from a re-analysis of the deposited data

How the results depend on the processing

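Of 570 values of the 10 clock genes under the alternatives, 498 kept their direction and their side of the threshold, 46 lost the call, 12 gained one and 14 turned in sign. In MC903 against control, 8 clock genes were called, 7 to 8 with each library left out in turn (9012 to 10376 genes of all, against 10259), 4 with the skeletal muscle covariate (1316 genes) and 0 with the adipocyte covariate (0 genes; 1709 at an unadjusted edgeR p under 0.05). In paeonol against MC903, 6 were called, 4 to 8 with a library left out (5065 to 6328 genes of all, against 6502) and 2 with the adipocyte covariate (962 genes). In paeonol against control, 2 were called, 1 to 5 with a library left out (5216 to 6710 genes of all, against 6765), 1 with the replicate block, 1 with only the 2 groups compared, 1 with the muscle covariate (334 genes) and 0 with the adipocyte covariate (1 gene). In MC903 against control the Per2 log2 change turned to -0.15 under library totals, -0.0072 with the replicate block, -0.81 with the muscle covariate, -0.056 without control library 1 and -0.16 without MC903 library 1 (range with a library left out -0.16 to 0.24), and that of Cry1 to -0.060 under library totals and -0.75 with the adipocyte covariate. In paeonol against control that of Clock turned to -0.13 under library totals, -0.28 and -0.061 with the muscle and adipocyte covariates and -0.0069 without control library 3 (range -0.0069 to 0.081), and with the adipocyte covariate those of Per2, Cry1 and Dbp turned to 0.38, -0.23 and 0.19. Only that of Cry1 had been called before, none was called after, and the cause was not tested. Library totals moved the median of all genes to -0.205 (MC903 against control) and -0.197 (paeonol against control), with 3402 higher and 7224 lower against 5044 and 5215, and 2155 higher and 5354 lower against 3578 and 3187. Replicate numbers did not pair the libraries (correlations of deviations within 0.04 of 0). The replicate block called Nr1d1 in paeonol against MC903 (edgeR adjusted p = 0.00392) and ended the calls of Dbp there (0.0527) and of Cry1 in paeonol against control (0.0502). Dbp in paeonol against MC903 was also not called without a filter (0.0794) or with only the 2 groups compared (0.0722). Nr1d1 was called there by DESeq2 (0.0202). With counts divided by 4, a shallower depth, all 30 clock gene values kept their direction and their side of the threshold.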
